A study of Homo sapiens with 26 samples.

Results

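The genes described here make cholesterol and long-chain fatty acids or control that supply, and they were chosen by name from a list of 32. Of these, 30 had a row of their own among the 18417 genes with 1 symbol each: 16 sterol enzymes, 6 regulators and carriers, and 8 fatty acid enzymes. FDFT1 was not analysed here, and the row of HSD17B7 also carries the symbol of HSD17B7P2 and was not used. Transcript levels came from 26 Affymetrix Human Gene 1.0 ST arrays of NCCIT, a human embryonal carcinoma line, with 2 arrays in each of 13 groups. Every culture received siRNA, and none was left without transfection.

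Each depletion is named by its targets, as in the labels. siD1+3A+3B received siRNA against DNMT1, DNMT3A and DNMT3B, siD1+3A that against DNMT1 and DNMT3A, and siD1+3B that against DNMT1 and DNMT3B. Without DNMT1, the groups were 3A+3B+3L (DNMT3A, DNMT3B and DNMT3L), 3A+3B, 3A+3L and 3B+3L. The single depletions were siDNMT3A, siDNMT1, siDNMT3B and siDNMT3L. Both siNTC-2 and siNTC-1 received control siRNA, and the labels do not say how they differ or which depletion belongs to which. DNMT1, DNMT3A and DNMT3B are the DNA methyltransferases, and DNMT3L is a cofactor of the DNMT3 enzymes without activity of its own.

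Cells build cholesterol from acetyl-CoA by way of mevalonate, squalene and lanosterol, and fatty acids from acetyl-CoA by way of malonyl-CoA. Transcription of both routes is driven by the SREBP factors, which SREBF1 and SREBF2 encode. SCAP carries the precursors out of the endoplasmic reticulum when sterols are scarce, and INSIG1 and INSIG2 hold them back when sterols are plentiful. INSIG1 and most sterol enzymes are themselves SREBP targets, so their transcripts are commonly read together.

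The DNA around the start sites of 4 of the 5 transcripts with the widest ranges over the groups, and of SREBF2, which encodes an SREBP factor, is shown first, since the SREBP factors act there together with NF-Y, a factor that binds CCAAT. RefSeq (GRCh38.p14) gave a window from 250 bases before to 50 bases after the start for 27 of the 30 genes, and none was used for ACAT2, SQLE or FASN. Both strands were searched for CCAAT and for TCACNCCAC, a form of the sterol regulatory element. CCAAT was found in 11 of 14 sterol enzymes, in 3 of 6 regulators and carriers and in 3 of 7 fatty acid enzymes, against 36.3% of the 14239 windows of all genes tested. TCACNCCAC was found in SREBF2 alone among the 27, against 1.14% of all windows. Below are the sterol enzymes HMGCS1 (chr5:43313363-43313662, minus strand), MSMO1 (chr4:165327419-165327718, plus strand) and IDI1 (chr10:1056655-1056954, minus strand), and the regulators INSIG1 (chr7:155297628-155297927, plus strand) and SREBF2 (chr22:41832855-41833154, plus strand). Capitals mark CCAAT, its reverse complement ATTGG, and in SREBF2 the TCACNCCAC match.
HMGCS1: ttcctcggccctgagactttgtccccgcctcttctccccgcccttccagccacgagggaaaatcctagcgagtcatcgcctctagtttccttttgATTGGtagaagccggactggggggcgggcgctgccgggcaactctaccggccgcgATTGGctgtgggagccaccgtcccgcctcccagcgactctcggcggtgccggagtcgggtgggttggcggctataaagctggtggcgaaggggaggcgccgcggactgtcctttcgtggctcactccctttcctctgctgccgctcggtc
MSMO1: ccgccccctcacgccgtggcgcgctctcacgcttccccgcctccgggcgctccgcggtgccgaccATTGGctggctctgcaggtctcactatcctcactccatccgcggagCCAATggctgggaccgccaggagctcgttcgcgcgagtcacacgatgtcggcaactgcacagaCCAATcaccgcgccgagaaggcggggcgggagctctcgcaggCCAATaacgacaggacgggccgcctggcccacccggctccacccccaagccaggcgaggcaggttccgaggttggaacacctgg
IDI1: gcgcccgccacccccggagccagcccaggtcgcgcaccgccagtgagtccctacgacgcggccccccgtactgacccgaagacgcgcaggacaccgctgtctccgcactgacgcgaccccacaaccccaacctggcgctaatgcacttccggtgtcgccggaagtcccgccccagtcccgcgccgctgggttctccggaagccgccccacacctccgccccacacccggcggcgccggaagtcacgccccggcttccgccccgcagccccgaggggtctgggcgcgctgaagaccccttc
INSIG1: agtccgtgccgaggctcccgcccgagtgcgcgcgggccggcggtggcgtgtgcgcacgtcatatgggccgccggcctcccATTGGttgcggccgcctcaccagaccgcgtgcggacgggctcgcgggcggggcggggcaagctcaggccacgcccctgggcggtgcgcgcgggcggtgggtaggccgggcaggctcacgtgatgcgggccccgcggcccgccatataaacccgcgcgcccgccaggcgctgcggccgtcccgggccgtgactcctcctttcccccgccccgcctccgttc
SREBF2: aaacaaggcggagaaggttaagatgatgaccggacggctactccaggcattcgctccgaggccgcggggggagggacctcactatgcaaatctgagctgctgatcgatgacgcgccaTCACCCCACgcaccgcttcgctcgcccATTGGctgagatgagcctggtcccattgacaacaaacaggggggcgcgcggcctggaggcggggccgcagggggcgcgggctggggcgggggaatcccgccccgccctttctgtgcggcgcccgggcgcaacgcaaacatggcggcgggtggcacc
The windows of HMGCS1 and INSIG1 hold CCAAT only as its reverse complement, and that of MSMO1 holds it on both strands. That of IDI1, whose transcript had its lowest group means in 3B+3L and siNTC-2 like theirs, holds neither motif. A match is a description of these letters and not of binding.

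The targeted transcripts were measured as a check of the labels. DNMT1 stood at 37.4% to 54.1% of siNTC-1 in the 4 groups that received its siRNA, DNMT3A at 58.0% to 68.0% in its 6, DNMT3B at 50.3% to 80.3% in its 6 and DNMT3L at 69.0% to 80.5% in its 4, all past the test. Against siNTC-2 the same was found except for DNMT3B in 3A+3B+3L, which stood at 99.4% (limma, adjusted p = 0.951). Some transcripts were also lower where they were not targeted. DNMT3L was at 75.6% of siNTC-1 (adjusted p = 0.0203) and 74.8% of siNTC-2 in siDNMT1, and at 79.6% of siNTC-2 in siDNMT3B. Against siNTC-1, DNMT3A was at 83.6% and DNMT1 at 90.4% in 3B+3L, and DNMT3B was at 88.4% in siDNMT3A. The other untargeted transcripts called were higher, all against siNTC-2, at 113% to 135% of it. A principal component analysis of the probe sets that carry no gene symbol placed the arrays on 2 sides, and its leading axis held 35.3% of the variance. The 8 arrays of siDNMT1, siDNMT3B, siDNMT3L and siNTC-1 lay on one side and the other 18 on that of siNTC-2. The sides were found from the values and are not groups of the study. Of 8 pluripotency markers 5 were measured, and SOX2, LIN28A, DPPA4, SALL4 and L1TD1 averaged 11.6 to 11.8 per array on each side. Of 13 markers of other cell types 12 were measured, and they averaged 4.94 to 5.07 on the siNTC-2 side and 4.93 to 5.12 on the siNTC-1 side. PAX6, the lowest of them, lay at the 7.67 percentile of all genes and MESP1, the highest, at the 41.2 percentile.

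The sterol enzymes ranged more widely over the 13 groups than the median gene. The range of group means had a median of 0.60 over the 16 sterol enzymes, 0.48 over the 6 regulators and carriers and 0.40 over the 8 fatty acid enzymes, against 0.41 over all genes. All levels and differences are on the log2 scale, where 1 unit is a doubling of signal. INSIG1 had the widest range, 1.41, followed by HMGCS1 with 1.35, SQLE with 1.19, MSMO1 and IDI1 with 1.08 each. ACACA had the narrowest, 0.23. The pooled SD of duplicates was 0.08 for INSIG1 and 0.04 for HMGCS1. By mean level, the 30 genes lay from the 46.5 percentile of all genes (PMVK) to the 99.3 percentile (MSMO1). All 30 were kept when the dimmest 40% of genes were dropped, while the shares of all genes given here include the dim ones. How far signal level contributes to the ranges, or to counts of calls beside those shares, was not tested.

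**Figure D1:**
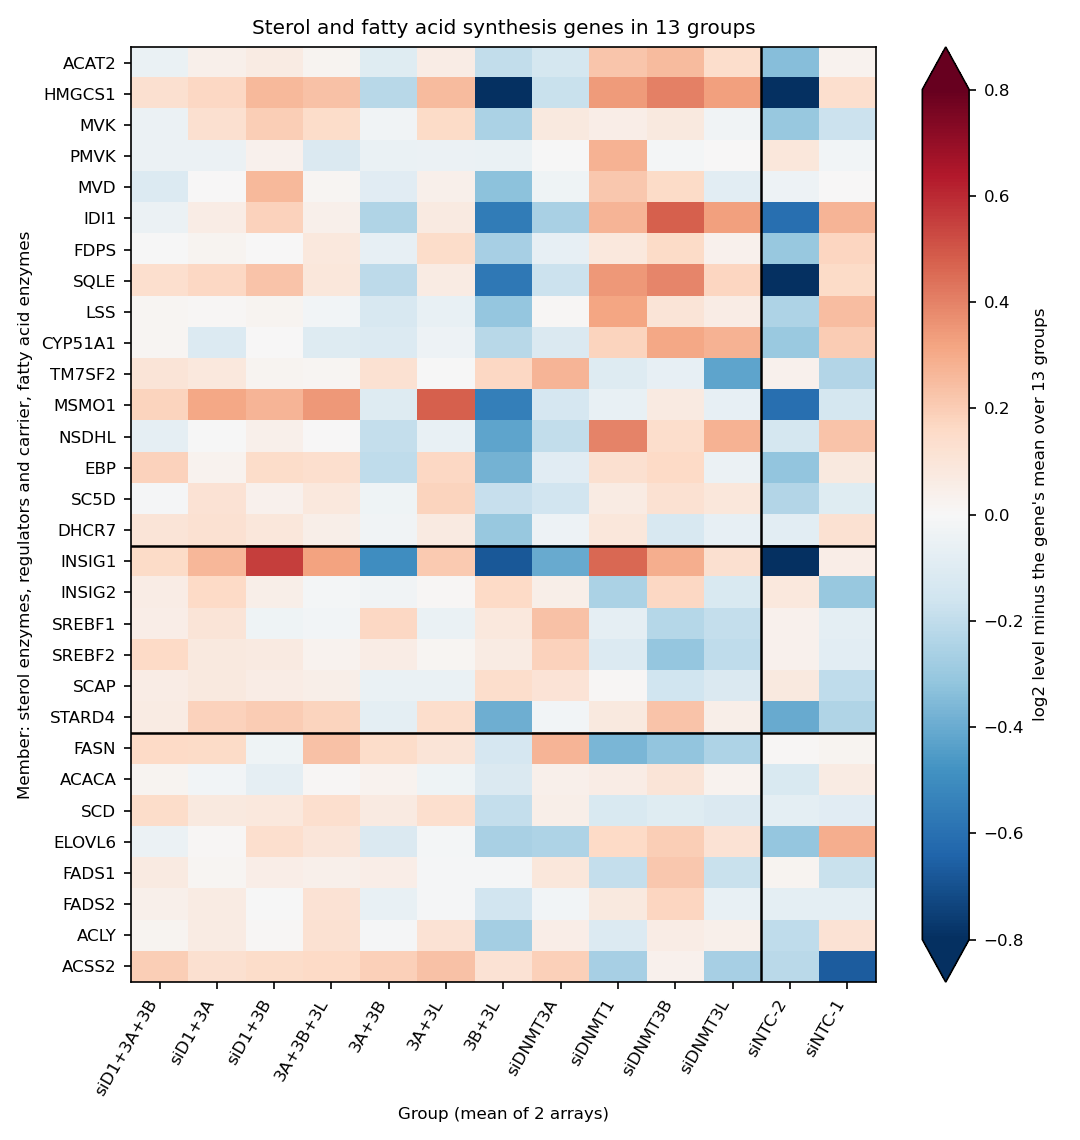
Each cell gives the mean of 2 arrays minus the mean over the 13 groups, in log2 units and capped at 0.8 either way, for 16 sterol enzymes (top), 6 regulators and carriers (middle) and 8 fatty acid enzymes (bottom). The columns of 3B+3L and siNTC-2 are blue in most sterol enzymes and in INSIG1 and STARD4, while ACSS2 is lowest in siNTC-1.

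One pattern ran through most of the cholesterol route. In 11 of 16 sterol enzymes the 2 groups with the lowest means were 3B+3L and siNTC-2, as they were for 4.75% of all genes. The same held for INSIG1 and STARD4 among the 6 regulators and carriers and for ACACA, ELOVL6 and ACLY among the 8 fatty acid enzymes. This pair of groups was not planned and was picked from these values, so the counts describe them and are not a test. HMGCS1, the synthase that makes HMG-CoA, read 10.05 and 10.06 in 3B+3L and 9.97 and 10.00 in siNTC-2. It read 10.76 in each array of siDNMT3A and 10.73 and 10.71 in 3A+3B. All other arrays, those of siNTC-1 included, lay between 11.01 and 11.36. Thus HMGCS1 fell into 3 levels that do not overlap, with the 2 control groups at different ones.

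INSIG1, which holds SCAP back, was low in the same 4 groups. Its arrays read 7.78 and 7.68 in 3B+3L and 7.45 and 7.65 in siNTC-2. They read 8.07 and 7.94 in siDNMT3A and 7.84 and 7.99 in 3A+3B. The other 9 groups lay between 8.43 and 9.01, so none of their arrays overlapped these 4 groups. MSMO1, an oxidase that acts in removing methyl groups from the sterol ring, was also lowest in 3B+3L (11.93 and 12.00) and siNTC-2 (11.93 and 11.88). Its highest arrays were those of 3A+3L, at 13.06 and 12.93. SQLE, the epoxidase of squalene, read 10.08 and 9.97 in 3B+3L and 9.83 and 9.75 in siNTC-2, and reached 11.06 in siDNMT3B. In MSMO1 and SQLE these 2 groups lie below every other array.

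**Figure D2:**
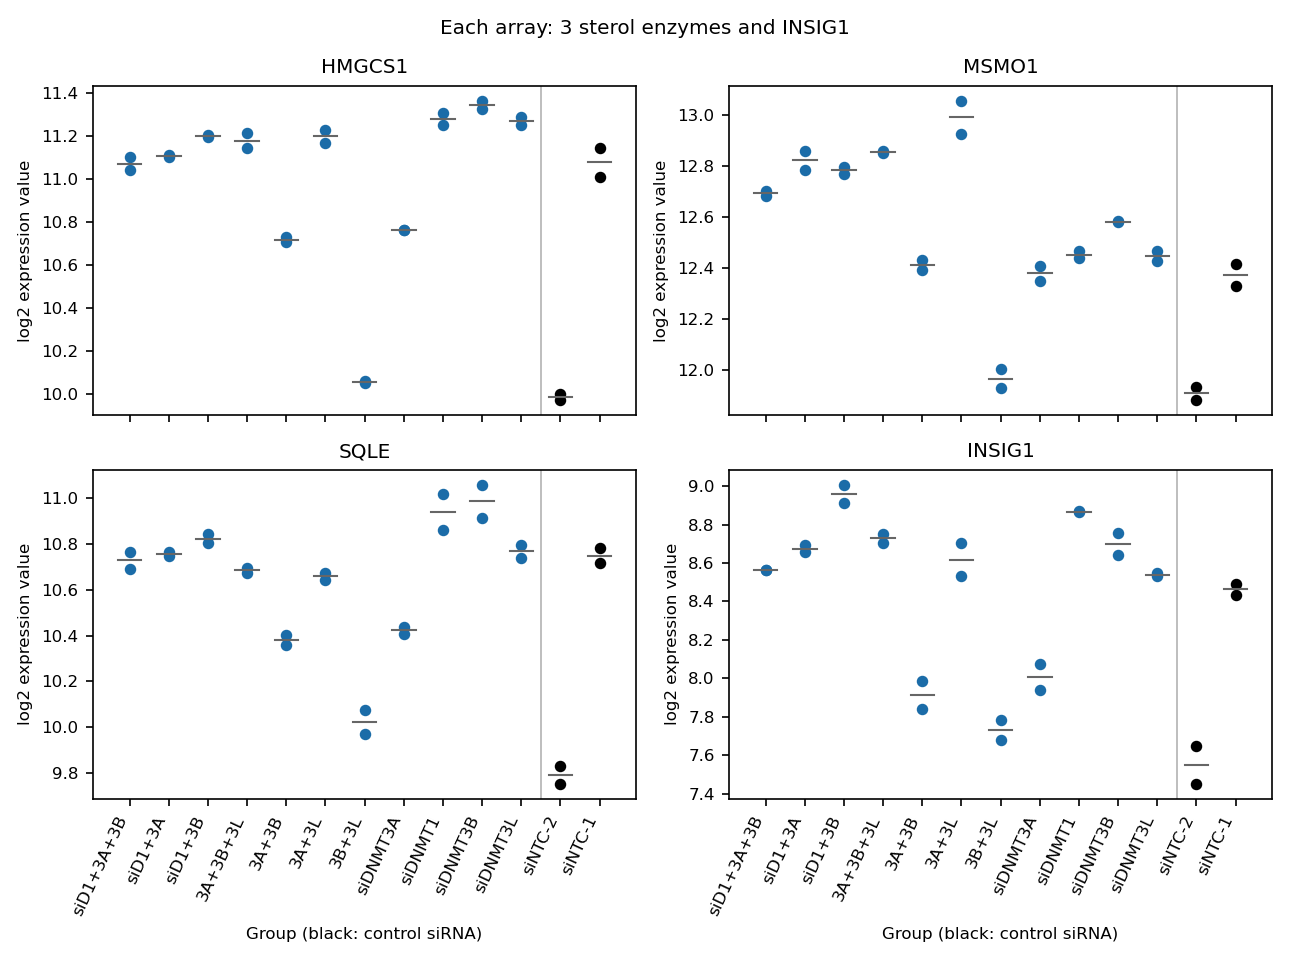
Points are the 2 arrays of each group and dashes their mean, in log2 expression values, for HMGCS1, MSMO1, SQLE and INSIG1, with control siRNA in black. In all 4 panels 3B+3L and siNTC-2 are the lowest groups, and siDNMT3A and 3A+3B are intermediate in HMGCS1, SQLE and INSIG1.

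Some genes did not share the pattern. TM7SF2, a sterol reductase, was lowest in siDNMT3L (6.56 and 6.60) and highest in siDNMT3A (7.32 and 7.22). SREBF2 was lowest in siDNMT3B, at 9.17 in both arrays, and had its highest mean in siDNMT3A (9.67). FASN, the fatty acid synthase, had its lowest means in siDNMT1 (10.29), siDNMT3B (10.34) and siDNMT3L (10.41) and its highest in siDNMT3A (10.93). ACSS2, which makes acetyl-CoA from acetate in the cytosol and nucleus, was lowest in siNTC-1 (8.02 and 8.03) and lay at or above 8.27 in every other array. For each of these 4 genes the group with the lowest mean lies on the siNTC-1 side.

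**Figure D3:**
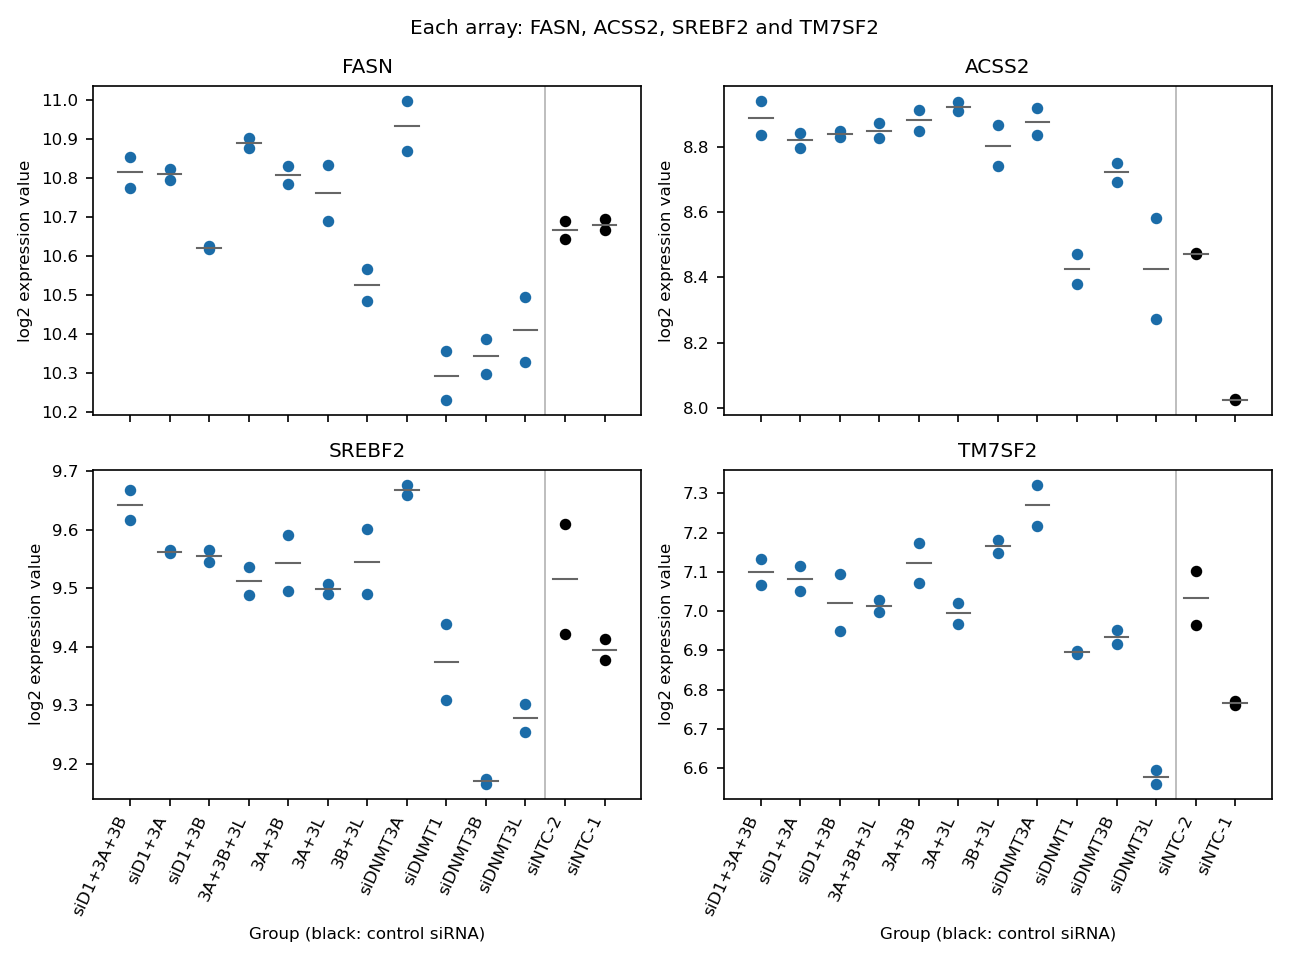
Points are the 2 arrays of each group and dashes their mean, in log2 expression values, for FASN, ACSS2, SREBF2 and TM7SF2, with control siRNA in black. FASN has its lowest means in siDNMT1, siDNMT3B and siDNMT3L, and ACSS2 is lowest in siNTC-1.

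The sterol enzymes differed between the cultures given control siRNA alone. Of the 30 genes, 20 were called between siNTC-2 and siNTC-1 (limma, Benjamini-Hochberg adjusted p under 0.05), against 44.7% of all genes. Among the 16 sterol enzymes 11 were lower (20.5% of all genes) and 1 was higher (24.2%) in siNTC-2, with a median difference of -0.38, against -0.02 over all genes. HMGCS1 was lower in siNTC-2 by a difference of -1.09 ± 0.05 (SE, n = 2 arrays each, adjusted p = 1.12e-11), which is 47.0% of siNTC-1. SQLE was at 51.5% (-0.96 ± 0.06, adjusted p = 9.27e-10) and IDI1, the isomerase that activates isopentenyl diphosphate, at 54.5% (-0.88 ± 0.07, adjusted p = 7.30e-09). The labels do not say that duplicates are separate cultures, so these p-values measure the spread between 2 arrays, which may be technical. In a bulk sample, fewer cells with a transcript and less of it per cell cannot be told apart.

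The other called sterol enzymes fell by smaller amounts. CYP51A1, the lanosterol demethylase, was at -0.50 ± 0.05, LSS, which closes the sterol ring, at -0.49 ± 0.07, and FDPS, the farnesyl diphosphate synthase, at -0.47 ± 0.05. FDPS also has rows shared with a pseudogene, which were not used. MSMO1 was at -0.47 ± 0.05, EBP, a sterol isomerase, at -0.39 ± 0.08, ACAT2, the thiolase that starts the route, at -0.37 ± 0.06, and NSDHL, a sterol dehydrogenase, at -0.37 ± 0.04. DHCR7, the reductase of the last step of one branch, was at -0.20 ± 0.06, a call lost when only the 2 control groups were fitted (adjusted p = 0.0754). The 4 sterol enzymes not called were MVK, PMVK, MVD and SC5D, of the mevalonate kinases, the decarboxylase and a desaturase. TM7SF2 was the 1 sterol enzyme higher in siNTC-2 (0.27 ± 0.06), and this call was lost after quantile normalization (adjusted p = 0.165).

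Among the regulators, INSIG1 was lower in siNTC-2 (-0.91 ± 0.08, adjusted p = 2.19e-08). INSIG2 (0.39 ± 0.11) and SCAP (0.28 ± 0.07) were higher. INSIG2 was lost without siNTC-1 replicate 2 (adjusted p = 0.0606), and SCAP without siNTC-1 replicate 1 (adjusted p = 0.0837). SREBF1, SREBF2 and STARD4, a carrier of sterols between membranes, were not called, at 0.11 ± 0.08, 0.12 ± 0.06 and -0.17 ± 0.08. Thus the genes of the SREBP factors themselves did not pass the test where 11 sterol enzymes and INSIG1 fell.

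The fatty acid enzymes did not move one way. ELOVL6, an elongase, read 9.66 and 9.72 in siNTC-2, against 10.32 and 10.25 in siNTC-1 (-0.59 ± 0.05, adjusted p = 1.37e-08). ACLY, which makes cytosolic acetyl-CoA from citrate, was at -0.32 ± 0.05 and ACACA, the acetyl-CoA carboxylase, at -0.19 ± 0.04. ACSS2 was higher in siNTC-2 (0.45 ± 0.08, adjusted p = 8.81e-05), as was FADS1, a desaturase (0.20 ± 0.06). The ACACA call was lost when only the control groups were fitted (adjusted p = 0.0862), and FADS1 without siNTC-2 replicate 2 (adjusted p = 0.110). FASN, SCD and FADS2 were not called, at -0.01 ± 0.07, 0.01 ± 0.06 and 0.00 ± 0.05. Of the 20 calls, 14 held under every alternative run: ACSS2 higher and ACAT2, HMGCS1, IDI1, FDPS, SQLE, LSS, CYP51A1, MSMO1, NSDHL, EBP, INSIG1, ELOVL6 and ACLY lower.

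**Figure D4:**
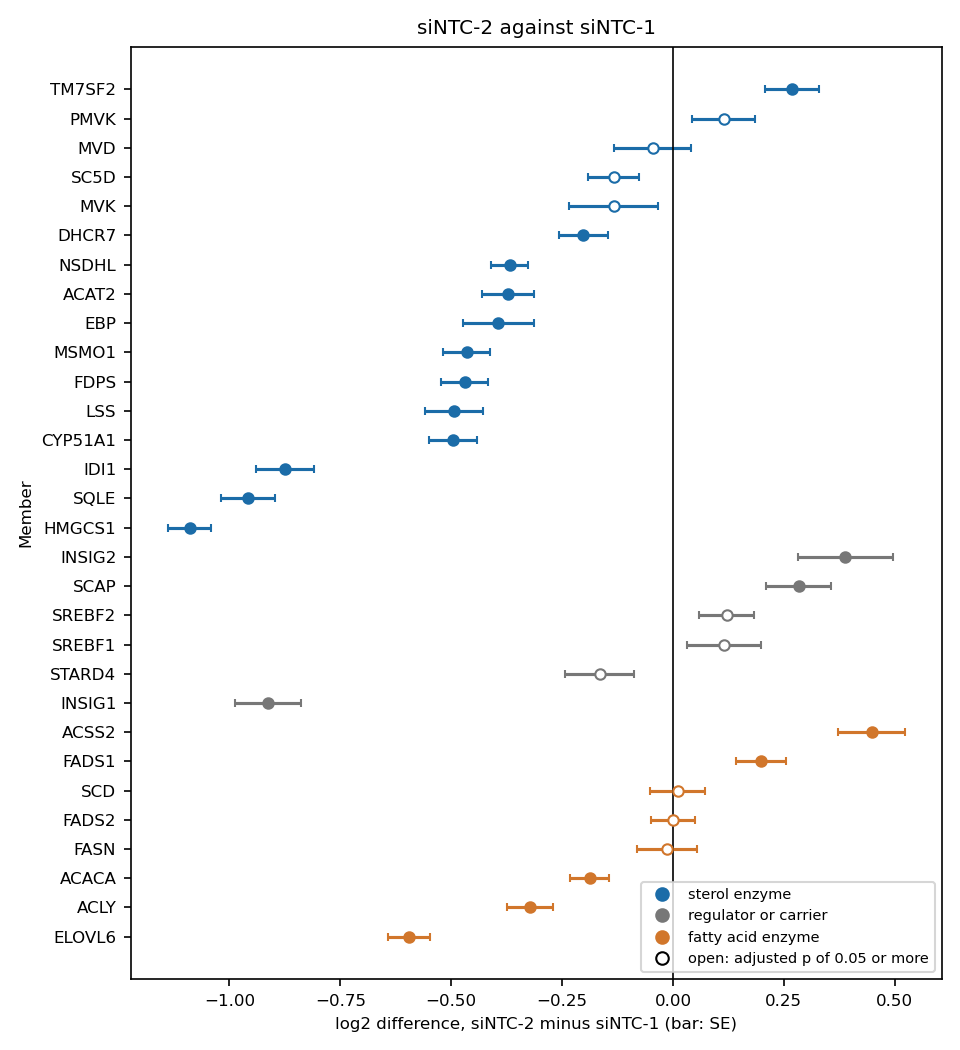
Each point is the log2 difference of siNTC-2 minus siNTC-1 for 1 gene, with a bar of 1 SE from limma and filled where the adjusted p is under 0.05. Sterol enzymes (blue) lie mostly left of 0, down to -1.09 for HMGCS1, with TM7SF2 at 0.27 on the right.

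Few of the 30 genes separated the sides. CYP51A1 and NSDHL were the only 2 of the 30 genes whose 18 arrays on the siNTC-2 side all lay below the 8 on the siNTC-1 side, as did 4.79% of all genes, and none lay wholly above, as did 7.93%. CYP51A1 ranged from 9.33 to 9.73 on the siNTC-2 side (median 9.60) and from 9.85 to 10.03 on the siNTC-1 side (median 9.94). HMGCS1 overlapped, from 9.97 to 11.23 (median 11.07) on the siNTC-2 side and from 11.01 to 11.36 (median 11.27) on the siNTC-1 side. How far the side contributes to a difference between a depletion and the control of the other side was not tested. Each depletion is therefore given against each control group, and comparisons with the same control share its 2 arrays.

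Against siNTC-1, the sterol route was lower in 3B+3L, siDNMT3A and 3A+3B. In 3B+3L, 21 of 30 genes were called, against 47.9% of all genes, with 12 sterol enzymes lower (22.5% of all genes) and TM7SF2 higher (25.4%). HMGCS1 fell to a mean of 10.06 in 3B+3L, against 11.08 in siNTC-1 (-1.02 ± 0.05, adjusted p = 2.00e-11). IDI1 (-0.83 ± 0.07), SQLE (-0.73 ± 0.06), NSDHL (-0.65 ± 0.04) and LSS (-0.56 ± 0.07) fell as well. INSIG1 fell by 0.73 on the log2 scale, and the fatty acid enzymes ELOVL6 (-0.55 ± 0.05), ACLY (-0.39 ± 0.05) and ACACA (-0.18 ± 0.04) were also lower. The ACACA call was not kept by every alternative, the highest adjusted p being 0.0972. ACSS2 (0.78 ± 0.08) and FADS1 (0.17 ± 0.06) were higher, FADS1 with a highest adjusted p of 0.129.

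In siDNMT3A, 21 of 30 genes were called, against 45.5% of all genes: 9 sterol enzymes were lower (20.8% of all genes) and MVK and TM7SF2 higher (24.7%), MVK with a highest adjusted p of 0.630. IDI1 (-0.53 ± 0.07), NSDHL (-0.43 ± 0.04), SQLE (-0.33 ± 0.06), HMGCS1 and CYP51A1 (-0.32 ± 0.05 each) were lower under every alternative. All 6 regulators and carriers were called, INSIG1 lower (-0.46 ± 0.08) and the others higher, such as SREBF2 (0.27 ± 0.06) and SCAP (0.31 ± 0.07). In 3A+3B, 17 of 30 were called, against 44.2% of all genes, with 9 sterol enzymes lower (20.6%) and TM7SF2 higher (23.6%). INSIG1 (-0.55 ± 0.08), IDI1 (-0.51 ± 0.07), NSDHL (-0.42 ± 0.04) and ELOVL6 (-0.41 ± 0.05) fell most. In both groups ACSS2 was the gene that rose most, by 0.85 ± 0.08 in siDNMT3A and 0.86 ± 0.08 in 3A+3B.

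The other combinations were mixed against siNTC-1, with some sterol enzymes higher and others lower. In siD1+3A 19 of 30 were called, against 41.6% of all genes, with 4 sterol enzymes higher (22.8%) and 5 lower (18.8%). MSMO1 (0.45 ± 0.05) and TM7SF2 (0.32 ± 0.06) were higher, and CYP51A1 (-0.31 ± 0.05) and NSDHL (-0.23 ± 0.04) were lower. In siD1+3B 18 were called, against 39.5%, with 4 sterol enzymes higher (21.3%) and 4 lower (18.2%). MSMO1 stood at 0.41 ± 0.05 there, INSIG1 at 0.50 ± 0.08 and STARD4 at 0.44 ± 0.08. In siD1+3A+3B 15 were called, against 39.7%, with 2 sterol enzymes higher (20.9%) and 5 lower (18.8%). In it MSMO1 was at 0.32 ± 0.05, and IDI1 and NSDHL at -0.32 ± 0.07 and -0.30 ± 0.04. Leaving out siNTC-1 replicate 1 or siD1+3A replicate 2 took siD1+3A to 11, and leaving out siD1+3B replicate 1 or replicate 2 took siD1+3B to 9 or 11.

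In both combinations that deplete DNMT3A and DNMT3L, MSMO1 was the sterol enzyme furthest above siNTC-1, as it was in siD1+3A and siD1+3B. In 3A+3L 14 were called, against 41% of all genes, with 4 sterol enzymes higher (21.5%) and 4 lower (19.4%). In 3A+3B+3L 18 were called, against 39.2%, with 4 higher (20.6%) and 4 lower (18.5%). MSMO1 was higher in 3A+3L (0.62 ± 0.05, adjusted p = 6.27e-08) and in 3A+3B+3L (0.48 ± 0.05, adjusted p = 1.06e-06). NSDHL was lower in 3A+3L (-0.28 ± 0.04) and in 3A+3B+3L (-0.23 ± 0.04). Without 3A+3B+3L replicate 1 its count was 10. Thus MSMO1 and NSDHL, which act next to each other in removing methyl groups from the sterol ring, differed from siNTC-1 in opposite directions. Against siNTC-2 both had higher means in these groups: NSDHL averaged 10.77 in 3A+3L, 10.82 in 3A+3B+3L and 10.68 in siNTC-2. All NSDHL arrays on the siNTC-2 side lay below those on the siNTC-1 side.

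The single depletions of DNMT1, DNMT3B and DNMT3L lay on the same side as siNTC-1. In siDNMT1 13 of 30 were called, against 19.8% of all genes, with 6 sterol enzymes higher (9.26%) and none lower (10.6%). INSIG1 read 8.87 and 8.86 in siDNMT1, against 8.49 and 8.43 in siNTC-1 (0.40 ± 0.08, adjusted p = 8.92e-04). FASN was lower in siDNMT1 (-0.39 ± 0.07, adjusted p = 4.66e-04, and 0.0606 when only these groups were fitted). In siDNMT3B 16 were called, against 24.2%, with 7 sterol enzymes higher (11.8%) and DHCR7 lower (12.4%). FADS1 read 11.31 and 11.37 in siDNMT3B, against 10.93 and 10.97 in siNTC-1 (0.39 ± 0.06), and STARD4 was at 0.47 ± 0.08. In siDNMT3L 8 were called, against 19.2%, with 2 sterol enzymes higher (9.32%) and 2 lower (9.86%), and no call held under every alternative. These counts rest on single arrays: they were 5 in siDNMT1 without its replicate 2 or without siNTC-1 replicate 1, 9 in siDNMT3B without its replicate 2 and 10 without siNTC-1 replicate 2. In siDNMT3L they were 4, 5, 3 and 2 without siNTC-1 replicate 1, siNTC-1 replicate 2, siDNMT3L replicate 1 and siDNMT3L replicate 2.

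ACSS2 was higher than siNTC-1 in each of the 11 depletions, from 0.40 ± 0.08 in siDNMT1 and in siDNMT3L to 0.90 ± 0.08 in 3A+3L. These comparisons share the 2 siNTC-1 arrays, which hold its lowest values. The control group siNTC-2 was itself above siNTC-1, by 0.45 ± 0.08. Against siNTC-2, with a mean of 8.47, ACSS2 was not higher in siDNMT1 or siDNMT3L, where it averaged 8.43 each. The siDNMT3L call was lost when only its groups were fitted (adjusted p = 0.115).

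Against siNTC-2, whose sterol genes were low, 10 of the depletions had 8 or more sterol enzymes higher, and 3B+3L had SQLE alone. HMGCS1 stood 1.35 ± 0.05 above siNTC-2 in siDNMT3B, 1.29 ± 0.05 in siDNMT1, 1.28 ± 0.05 in siDNMT3L, 1.21 ± 0.05 in siD1+3B and in 3A+3L, and 1.19 ± 0.05 in 3A+3B+3L. It stood 1.12 ± 0.05 above siNTC-2 in siD1+3A, 1.08 ± 0.05 in siD1+3A+3B, 0.77 ± 0.05 in siDNMT3A and 0.73 ± 0.05 in 3A+3B. In 3B+3L it was not called, at 0.07 ± 0.05. All 11 values share the 2 siNTC-2 arrays, and the order is that of the group means of HMGCS1.

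By count, siDNMT1 had 15 of 16 sterol enzymes higher than siNTC-2 (17.5% of all genes) and none lower (24%). Over the 30 genes 23 were called, against 41.4% of all genes. siDNMT3B had 12 higher (19.7%), with 24 of 30 called against 44.2%, and siDNMT3L 12 higher (19.7%) and TM7SF2 lower (24.7%), with 23 called against 44.4%. In siDNMT3L, TM7SF2 was at -0.46 ± 0.06 (adjusted p = 5.25e-06). Among the combinations with DNMT1, siD1+3B had 14 sterol enzymes higher, against 11.7% of all genes (19 of 30 called, against 25%). siD1+3A had 13 higher, against 12% (19 called, against 22.8%), and siD1+3A+3B 11, against 7.74% (18 called, against 18.6%). None of the 3 had a sterol enzyme lower than siNTC-2.

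Without DNMT1, 3A+3B+3L had 12 sterol enzymes higher than siNTC-2 (10.5% of all genes) and PMVK lower (12.8%), with 22 of 30 called, against 23.3% of all genes, and 14 without 3A+3B+3L replicate 2. The PMVK difference of -0.21 ± 0.07 had a highest adjusted p of 0.283 over the alternatives. 3A+3L had 11 higher, against 10.6% of all genes (17 called, against 22.4%). siDNMT3A had 10 higher, against 8.44% (16 called, against 15.8%), and 3A+3B 8, against 6.04% (14 called, against 12.6%). Without siNTC-2 replicate 1 or siDNMT3A replicate 1 the count of siDNMT3A was 10 or 9. That of 3A+3B was 8, 9, 7 and 7 without siNTC-2 replicate 1, siNTC-2 replicate 2, 3A+3B replicate 1 and 3A+3B replicate 2.

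3B+3L had the fewest calls against siNTC-2, 5 of 30 genes, against 10.1% of all genes. SQLE (0.23 ± 0.06) and ACSS2 (0.33 ± 0.08) were higher (5.61% of all genes), and NSDHL (-0.28 ± 0.04), MVD (-0.28 ± 0.09) and DHCR7 (-0.22 ± 0.06) were lower (4.49%). NSDHL read 10.43 and 10.37 in 3B+3L, against 10.67 and 10.69 in siNTC-2. None of the 5 calls held under every alternative, and the count was 1 without siNTC-2 replicate 2 and 3 without either array of 3B+3L.

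Genes past the test against each control group, in the same direction, were few beside the calls against one of them. In siDNMT3B 11 genes were higher than each control group, against 5.69% of all genes, and SREBF2 and FASN were lower, against 6.39%. In siDNMT1 9 were higher (4.02% of all genes) and FASN was lower (5.26%). In 3A+3B+3L 9 were higher (4.2%), among them FASN, SCD, FADS2 and ACSS2 of the fatty acid branch. In siD1+3A 7 were higher (5.1%), in siD1+3B 6 (4.84%), in 3A+3L 6 (4.32%), in siDNMT3A 5 (4.38%), in siD1+3A+3B 4 (2.96%), in siDNMT3L 3 (4.4%), and in 3A+3B (2.95%) and 3B+3L (3.58%) ACSS2 alone. Lower than each control were TM7SF2 and FASN in siDNMT3L (5.45%) and MVD, NSDHL and DHCR7 in 3B+3L (2.28%). Other genes were called in opposite directions against the 2 control groups. These were 8 in siDNMT3A (3.92% of all genes), 7 of them sterol enzymes, 7 in 3A+3B (3.4%) and 6 in siD1+3A (5.63%). There were 5 in siD1+3B (5.77%), siD1+3A+3B (5.12%) and 3A+3B+3L (5.86%) and 4 in 3A+3L (5.51%). siDNMT3L (2.82%) and 3B+3L (1.54%) had 1 each, and siDNMT1 (3.13%) and siDNMT3B (3.43%) had 0. The 2 tests of a depletion share its 2 arrays.

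FASN and SREBF2 did not follow the sterol enzymes in one direction. FASN was lower than siNTC-2 in siDNMT1 (-0.37 ± 0.07, adjusted p = 1.66e-04) and siDNMT3B (-0.32 ± 0.07, adjusted p = 6.20e-04), where 15 and 12 sterol enzymes were higher. In siDNMT3L it was at -0.26 ± 0.07, a call lost without siDNMT3L replicate 2 (adjusted p = 0.0904). SREBF2 read 9.17 in both arrays of siDNMT3B, against 9.61 and 9.42 in siNTC-2 (-0.35 ± 0.06, adjusted p = 1.41e-04) and 9.38 and 9.41 in siNTC-1 (-0.23 ± 0.06, adjusted p = 0.0120). The second of these calls was lost in 3 alternatives, with a highest adjusted p of 0.130. In 3A+3B+3L, where 12 sterol enzymes were higher than siNTC-2, FASN was higher too (0.22 ± 0.07, adjusted p = 0.0215, lost in 4 alternatives with a highest adjusted p of 0.122). In siD1+3B, where 14 were higher, FASN (-0.05 ± 0.07) and SREBF2 (0.04 ± 0.06) were not called. In siDNMT3B the SREBF2 transcript was thus low where HMGCS1, SQLE and IDI1 were at their highest means.

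Comparisons between depletions on the siNTC-2 side need no control group. In 9 pairs the siRNA mixtures differ by 1 siRNA, and over these pairs 58 differences of the 30 genes were called. Of all genes, 0.0923% to 18.9% were called per pair, and the share of each pair is given below. Several pairs share a group, so their values are given side by side.

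With siRNA against DNMT1 added to a depletion of DNMT3A, part of the sterol route was higher. In siD1+3A against siDNMT3A 8 of 30 genes were higher (4.32% of all genes) and none lower (5.29%), with 9.62% of all genes called. INSIG1 read 8.66 and 8.69 in siD1+3A, against 8.07 and 7.94 in siDNMT3A (0.67 ± 0.08, adjusted p = 2.44e-05). MSMO1 read 12.86 and 12.79 in siD1+3A, against 12.35 and 12.41 in siDNMT3A (0.44 ± 0.05, adjusted p = 4.04e-05). HMGCS1 (0.34 ± 0.05) and SQLE (0.33 ± 0.06) were higher too. The calls of INSIG1, MSMO1, HMGCS1 and SQLE held under every alternative. IDI1, SC5D, NSDHL and ELOVL6 were also higher, by 0.20 to 0.32, but not under all alternatives: the highest adjusted p was 0.0914, for NSDHL. In siD1+3A+3B against 3A+3B, where 5 of 30 genes were higher, against 1.02% of all genes (3.19% called), INSIG1 was higher by 0.65 ± 0.08 (adjusted p = 8.92e-05). HMGCS1 (0.35 ± 0.05), SQLE (0.35 ± 0.06), EBP (0.39 ± 0.08) and MSMO1 (0.28 ± 0.05) were also higher, though only the INSIG1 call held throughout.

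MSMO1, INSIG1 and HMGCS1 were also higher with siRNA against DNMT3L added. In 3A+3L against siDNMT3A 11 genes were higher (4.07% of all genes) and 2 lower (6.04%), with 10.1% of all genes called. MSMO1 read 13.06 and 12.93 in 3A+3L, against 12.35 and 12.41 in siDNMT3A (0.61 ± 0.05, adjusted p = 6.69e-07). INSIG1 (0.61 ± 0.08), HMGCS1 (0.44 ± 0.05) and IDI1 (0.33 ± 0.07) were higher under every alternative as well. TM7SF2 (-0.28 ± 0.06) and SREBF1 (-0.29 ± 0.08) were lower, with highest adjusted p-values of 0.111 for TM7SF2 and 0.334 for SREBF1. In 3A+3B+3L against 3A+3B 10 genes were higher (3.93% of all genes) and none lower (5.49%), with 9.42% of all genes called. INSIG1 read 8.75 and 8.71 in 3A+3B+3L, against 7.84 and 7.99 in 3A+3B (0.82 ± 0.08, adjusted p = 1.15e-06). HMGCS1 (0.46 ± 0.05), MSMO1 (0.45 ± 0.05) and SQLE (0.30 ± 0.06) were higher throughout the alternatives. The siDNMT3A arrays serve in both pairs that start from siDNMT3A, and those of 3A+3B in both that start from 3A+3B.

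With siRNA against DNMT3B added, no gene of the 30 passed the test. limma called 0 of 30 genes in 3A+3B against siDNMT3A, and 0.0923% of all genes. At an unadjusted p under 0.05 it had 4 of the 30, against 10.9% of all genes. It called 0 in siD1+3A+3B against siD1+3A (0.57% of all genes) and 0 in 3A+3B+3L against 3A+3L (0.0977%). Unadjusted, 3 of 30 passed in each, against 12.2% and 7.66% of all genes. The DNMT3B transcript stood at 73.5% of siNTC-2 in 3A+3B, 87.1% in siD1+3A+3B and 99.4% in 3A+3B+3L. How far the remaining transcript limits these counts was not tested. HMGCS1 read 10.73 and 10.71 in 3A+3B, against 10.76 in each array of siDNMT3A, and 11.14 and 11.21 in 3A+3B+3L, against 11.17 and 11.23 in 3A+3L. Whether the effect of DNMT1 or DNMT3L siRNA differed with that of DNMT3B was tested as an interaction. In each of the 2, limma called 0 of 30 genes (0.076% and 0.0326% of all genes). Unadjusted, 5 of 30 passed in each, against 8.57% and 10.3% of all genes.

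**Figure D5:**
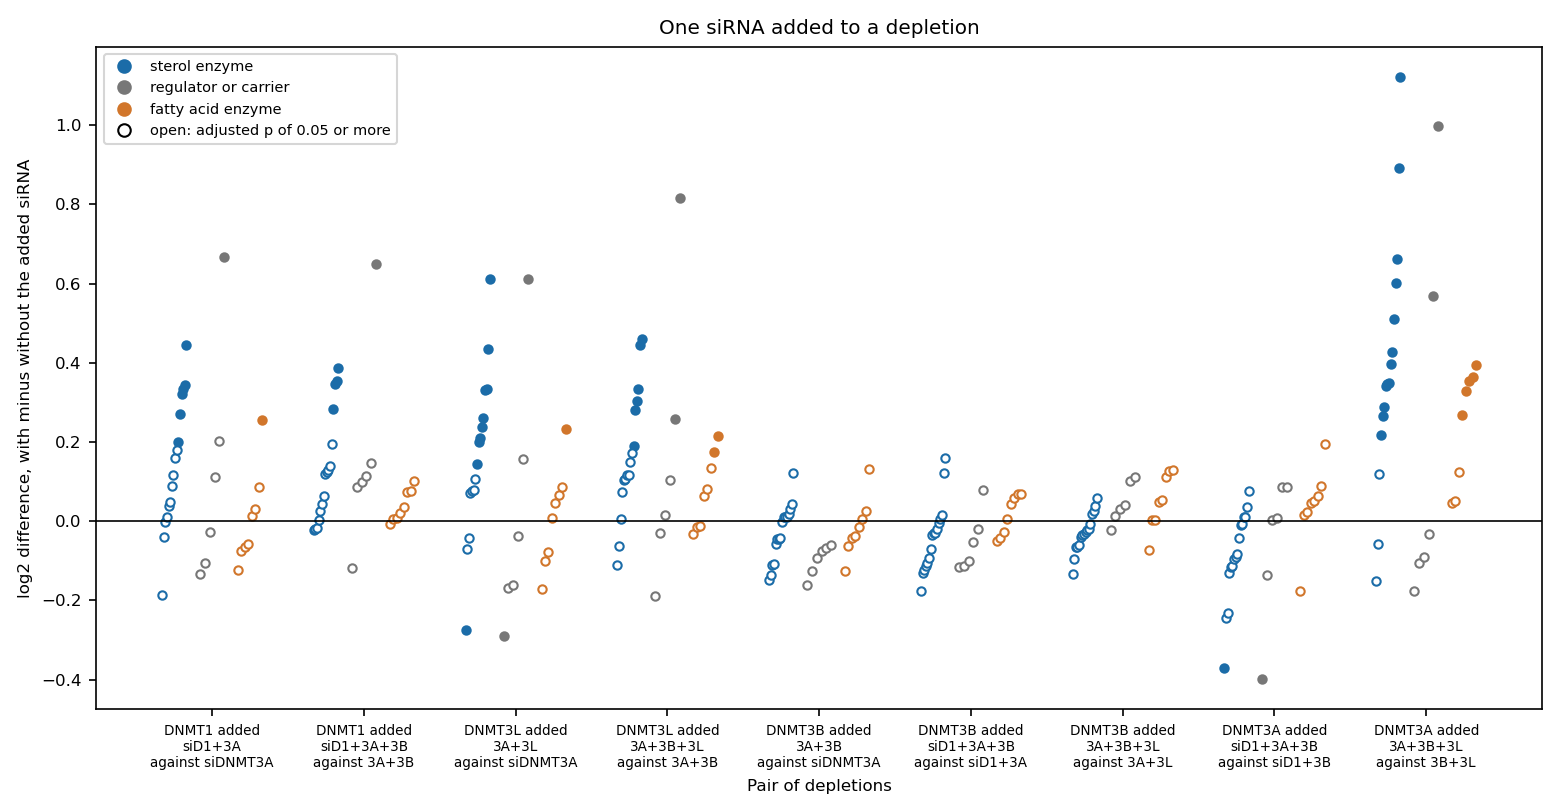
Each point is the log2 difference of 1 gene between a depletion with an added siRNA and the same depletion without it, for 9 pairs, filled where the adjusted p is under 0.05. The highest filled points lie in 3A+3B+3L against 3B+3L (HMGCS1 at 1.12, INSIG1 at 1.00), and the 3 pairs with DNMT3B siRNA added have no filled point.

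The addition of siRNA against DNMT3A was compared in the 2 pairs that lie wholly on the siNTC-2 side. Pairs that start from siDNMT1, siDNMT3B or siDNMT3L were left out, since these groups lie on the other side. That choice rests on sides found from the values. In 3A+3B+3L against 3B+3L 20 of 30 genes were higher (7.59% of all genes) and none lower (11.3%), with 18.9% of all genes called and 13 of 16 sterol enzymes, INSIG1, STARD4 and 5 of 8 fatty acid enzymes among them. HMGCS1 read 11.14 and 11.21 in 3A+3B+3L, against 10.05 and 10.06 in 3B+3L (1.12 ± 0.05, adjusted p = 2.61e-11). INSIG1 was higher by 1.00 ± 0.08, MSMO1 by 0.89 ± 0.05, SQLE by 0.66 ± 0.06, IDI1 by 0.60 ± 0.07 and STARD4 by 0.57 ± 0.08. The 2 groups also differed in the DNMT3B transcript, which averaged 11.66 in 3A+3B+3L and 11.21 in 3B+3L, though both received its siRNA. How far that contributes to the differences was not tested.

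In the fatty acid branch ACLY (0.40 ± 0.05), FASN (0.36 ± 0.07), ELOVL6 (0.35 ± 0.05), SCD (0.33 ± 0.06) and FADS2 (0.27 ± 0.05) were higher in 3A+3B+3L than in 3B+3L. SCD, the desaturase that makes oleic acid, read 11.81 and 11.80 in 3A+3B+3L, against 11.49 and 11.46 in 3B+3L. This was the pair of depletions in which the fatty acid branch had the most calls. Of the 20 calls, 16 held under every alternative, while ACAT2, LSS, MVD and MVK did not: all 4 were lost without 3B+3L replicate 2, with adjusted p-values from 0.0624 for LSS to 0.130 for MVD.

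In siD1+3A+3B against siD1+3B, where 3.02% of all genes were called, no gene of the 30 was higher (1.34%). INSIG1 (-0.40 ± 0.08, adjusted p = 7.34e-03) and MVD (-0.37 ± 0.09, adjusted p = 0.0256) were lower (1.68%). INSIG1 read 8.56 in both arrays of siD1+3A+3B, against 9.01 and 8.91 in siD1+3B. Neither call held under every alternative: INSIG1 was at an adjusted p of 0.0921 without siD1+3B replicate 1 and MVD at 0.192 without siD1+3A+3B replicate 2.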

How the data were processed

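The authors deposited 1 table of log2 expression values for 33297 transcript clusters on 26 arrays; the log base was read from the values (3.04 to 14.87), and the submitters' processing notes name Partek without a role or version. How probes were background-corrected, summarised and normalized is not given in the sources used here. Array medians of the deposited values lay between 6.28 and 6.33, so an overall shift between groups would not be visible, and differences of dim genes are compressed on arrays. Per the labels' protocols, cells grew in McCoy's 5A medium with serum and were transfected with PepMute, and labelled targets were made from total RNA extracted with Trizol. The 2 arrays of a group limit the precision.

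Symbols came from GEO's platform annotation: 19460 clusters had 1 symbol, 1754 several and 12083 none, and 19429 matched RefSeq, with 0 renamed. For 769 genes with several clusters, CYP51A1 among them, the cluster with the highest mean was kept, which left 18417 genes. FADS1 and FADS2 overlap in the annotation.

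All genes entered a single limma fit (3.58.1, R 4.3.3) with a mean for each of 13 groups, which left 13 residual and 4.49 prior degrees of freedom. Benjamini-Hochberg adjustment ran over all genes within each comparison. Since the control groups differ in 8234 genes, each depletion was tested against each of them and not against their mean. Genes are called at an adjusted p under 0.05. The fit was tested on simulated data. Alternatives were quantile normalization, dropping the dimmest 40% of genes, a variance prior with trend and robust fit, a replicate block, the mean over all clusters of a symbol, a fit of only the groups compared, and leaving out each array. A call is said to hold under every alternative where all of these kept it.

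The members and lists were chosen with earlier results of these data known. All members may be named, and each comparison gives first those with the largest called difference in each direction. Up to 4 neighbouring genes per list and comparison are named, those with the smallest adjusted p. ABCA1 is an exception, as it is also given in comparisons where it was not called. Members outside the common pattern were picked after their values were seen.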

Additional observations from a re-analysis of the deposited data

Results flagged for a closer look

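The addition of siRNA against DNMT3A was compared between its 2 pairs by a test of the difference itself, which was added after the values had been seen. The difference of 3A+3B+3L minus 3B+3L exceeded that of siD1+3A+3B minus siD1+3B for 18 of 30 genes (limma, Benjamini-Hochberg adjusted p under 0.05), against 6.37% of all genes higher and 14.8% called. Both pairs share DNMT3B siRNA, and they differ in DNMT3L or DNMT1 siRNA. The DNMT3B transcript stood at 99.4% of siNTC-2 in 3A+3B+3L and 72.6% in 3B+3L. It stood at 87.1% in siD1+3A+3B and 76.4% in siD1+3B, and its part in the excess was not tested. The excess, in log2 units, was 1.40 for INSIG1 (adjusted p = 6.24e-08) and 1.25 for HMGCS1 (adjusted p = 8.64e-10). Among the other sterol enzymes it was 0.98 for MSMO1, 0.83 for IDI1, 0.76 for SQLE, 0.71 for MVD, 0.64 for MVK, 0.54 for NSDHL, 0.47 for EBP, 0.36 for FDPS, 0.34 for DHCR7, 0.33 for ACAT2, 0.31 for SC5D and 0.29 for LSS. STARD4 had an excess of 0.71, and in the fatty acid branch it was 0.53 for ELOVL6, 0.38 for ACLY and 0.22 for FADS2. The calls of ACAT2, SC5D, LSS and FADS2 were lost in 1 or more alternatives, with highest adjusted p-values of 0.0516 for ACAT2 (without siD1+3A+3B replicate 2), 0.0559 for SC5D, 0.173 for LSS and 0.132 for FADS2, and the other 14 held.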

How the results depend on the processing

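Of 1050 differences of single genes, 0 that were called in the fit of all arrays or in an alternative changed sign between them; differences near 0 that were called in neither can change sign. Fitting only the groups compared, which leaves fewer arrays to estimate the spread, lost 163 calls and gained 2. Against siNTC-1 siDNMT1 kept a count of 2 of the 30 genes, siD1+3A of 10, siD1+3B of 6, siDNMT3B of 4, siDNMT3L of 0 (limma, with 8 in the fit of all groups), 3A+3L of 9 and 3A+3B+3L of 11. Against siNTC-2 it left 8 in siDNMT3A, 5 in 3A+3B and 0 in 3B+3L, and over the 9 pairs with an added siRNA it left 36. Leaving out 1 array at a time gave counts against siNTC-1 of 5 to 11 in siDNMT1, 11 to 14 in siD1+3A, 9 to 15 in siD1+3B, 9 to 15 in siDNMT3B, 2 to 5 in siDNMT3L and 10 to 16 in 3A+3B+3L. Against siNTC-2 the counts were 9 to 13 in siDNMT3A, 7 to 9 in 3A+3B, 1 to 4 in 3B+3L and 14 to 17 in 3A+3B+3L. The other counts stayed within 1.5 times their value, such as 19 to 21 for siNTC-2 against siNTC-1 and 48 to 58 for the added siRNAs. Quantile normalization lost 31 calls and gained 29, the trended and robust prior lost 4 and gained 38, the filter on dim genes lost 0 and gained 31, and the mean over all clusters lost 0 and gained 1. The replicate block lost 10 calls and gained 2, and took siDNMT1 against siNTC-1 to 11. The labels do not say that replicate numbers pair samples, and over pairs of groups the correlation of replicate deviations ran from -0.26 to 0.19. No background or detection signal was used here, so how far dim signal limits a gene was not tested.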

Other observations

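Neighbouring genes of both pathways, from lists of 15 measured genes each, were called in both directions. Between siNTC-2 and siNTC-1, 3 of the sterol list were higher and 5 lower in siNTC-2, and 3 of the fatty acid list were higher and 4 lower, against 24.2% of all genes higher and 20.5% lower. SOAT1, which esterifies cholesterol, was lower in siNTC-2 (-0.50 ± 0.06), as were TMEM97, a sterol-regulated membrane protein (-0.37 ± 0.05), and LBR, a second sterol reductase (-0.37 ± 0.05). MBTPS2, a protease that releases the SREBP factors, was higher (0.50 ± 0.06). Among the fatty acid genes FADS3, related to FADS1 and FADS2, averaged 9.47 in siNTC-2 and 8.42 in siNTC-1 (limma, 1.05 ± 0.07, adjusted p = 8.39e-10), and TECR, the reductase of the elongation cycle, was higher by 0.60 ± 0.06, while HACD3, its dehydratase, was lower (-0.40 ± 0.04).

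ABCA1, which exports cholesterol from cells and is induced when sterols are plentiful, differed in the direction opposite to the sterol enzymes in 4 pairs. It averaged 8.19 in siD1+3A and 8.65 in siDNMT3A (-0.46 ± 0.06, limma, adjusted p = 2.05e-04), and 8.16 in 3A+3L, set against the same siDNMT3A arrays (-0.49 ± 0.06, adjusted p = 9.61e-05). It averaged 8.28 in siD1+3A+3B and 8.72 in 3A+3B (-0.44 ± 0.06, adjusted p = 7.12e-04), and 8.25 in 3A+3B+3L, set against the same 3A+3B arrays (-0.47 ± 0.06, adjusted p = 1.01e-04). In 3A+3B+3L against 3B+3L, where 13 sterol enzymes were higher, ABCA1 was not called (-0.09 ± 0.06, adjusted p = 0.378), and it was higher in siD1+3A+3B than in siD1+3B (0.37 ± 0.06, adjusted p = 3.35e-03). It was not called between siNTC-2 and siNTC-1 (-0.03 ± 0.06, adjusted p = 0.711). TMEM97 was higher in 3A+3B+3L than in 3B+3L by 0.40 ± 0.05 (adjusted p = 9.19e-06), and PNPLA3, a lipid droplet protein, by 0.59 ± 0.08 (adjusted p = 2.86e-05).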
